A study of Mus musculus with 9 samples.

Results

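The genes described here are 34 genes of cholesterol synthesis, uptake and efflux, chosen by name and matched by symbol in a table of 45535 named rows. They comprise 18 enzymes of cholesterol synthesis, 5 genes that control the sterol response, 4 genes that release or move cholesterol inside the cell, 5 genes of the liver X receptor and efflux arm, and 2 genes of storage and oxysterol formation. All 34 were found, each in 1 row, and each was read in every sample, with the lowest value at 58 reads. RNA was sequenced from dendritic cells carrying the integrin CD103, taken from lungs of C57/BL6j mice 7 days into bleomycin treatment, a model of lung fibrosis. Every sample of both groups comes from treated mice, and the lungs were digested with collagenase before the cells were pulled out on magnetic beads. One group of 5 samples was lysed directly (before culture), and the other, of 4 samples, was first kept for 18 h in culture, in RPMI with bovine serum, penicillin and streptomycin (after culture). The samples are taken as separate because they are listed as such. No source used here ties them to single mice or pools, so p-values measure the spread between these samples, which may be partly technical.

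Cells make cholesterol from acetyl-CoA. A first series of enzymes builds mevalonate and turns it into farnesyl pyrophosphate, and a second series joins farnesyl units into squalene, closes the ring and trims it to cholesterol. The transcription factor SREBP2, encoded by Srebf2, drives these enzymes when sterol in the endoplasmic reticulum is low. It travels with its escort SCAP to the Golgi to be cleaved, and the INSIG proteins hold the pair back when sterol is high. Cholesterol taken up in lipoproteins or dead cells is freed in lysosomes by the acid lipase LIPA and exported by NPC2 and NPC1. Excess is esterified by SOAT1, or pumped out by ABCA1 and ABCG1, whose genes are targets of the liver X receptors (LXR). Macrophages and dendritic cells handle much cholesterol in this way, because they ingest other cells.

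Values are normalized read counts, that is reads per gene divided by 1 size factor per sample. Levels are not corrected for gene length, except where a level per kilobase is named. Changes are given as log2 fold changes of (value + 1), after minus before culture, with their standard error (SE), and values after ± are SDs over 5 samples before and 4 after culture. They were tested with limma over all 18202 rows with a mean of at least 10, and a change was called at an adjusted p under 0.05.

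The samples carried RNA of other cells beside the labelled type, and fewer cells of a type cannot be told apart from less RNA per cell in bulk samples. Of 10 markers of type 1 conventional dendritic cells, the labelled CD103+ type, 7 fell and 3 rose, and all were read in every sample, Itgae (CD103) at 18138 ± 1537 before and 1727 ± 335 after culture. All 10 markers of mature dendritic cells rose, with summed counts of 47812 to 51158 before and 225774 to 250864 after culture. Alveolar epithelial markers, from cells that also make cholesterol, fell in 10 of 10 (sums 30652 to 50266 and 7609.7 to 11457), and alveolar macrophage markers fell in 7 of 8 tested (sums over 9 genes 27379.7 to 37105 and 8039.5 to 11659). The epithelial markers did not vary together before culture. Sftpc was highest in replicate 4 (16826), where Napsa was lowest (7064), so their sum need not follow a single cell type. Endothelial (8 of 8), fibroblast (6 of 6) and neutrophil markers (7 of 7) fell too, with sums after culture of at most 4422, and 4 of 10 lymphocyte markers fell while 1 rose. No marker was at 0 in every sample of a group. The part of these cells in the changes of the cholesterol genes was not tested. Depth in named rows ran from 14673818 to 35286110 reads per sample.

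After culture 13 of the 18 enzymes of cholesterol synthesis rose and none fell, whereas 4 of the 5 genes that control the sterol response fell. The 4 genes that release or move cholesterol inside the cell rose, and the liver X receptor and efflux arm was mixed. Of the 34 genes, 21 rose and 5 fell (61.8% and 14.7%), where 34.2% and 34.6% of all genes tested did so. Groups did not overlap for 18 genes that were higher and 4 that were lower (52.9% and 11.8%), where the shares over all genes were 28.7% and 28.6% (57.3% in either direction). The median log2 fold change of the 34 was 0.53, beside 0.0065 over all genes tested. Of the called genes, 9 were at least 2-fold higher and 1 (Scap) at least 2-fold lower, where 14.1% and 18.6% of all genes were (32.7% in either direction). Most of the transcriptome differed between the groups, with 68.8% of genes called, so a single call says little and size and direction carry the description. After a correction of each sample for GC content and transcript length, 24 of the 34 were called higher and 2 lower.

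**Figure D1:**
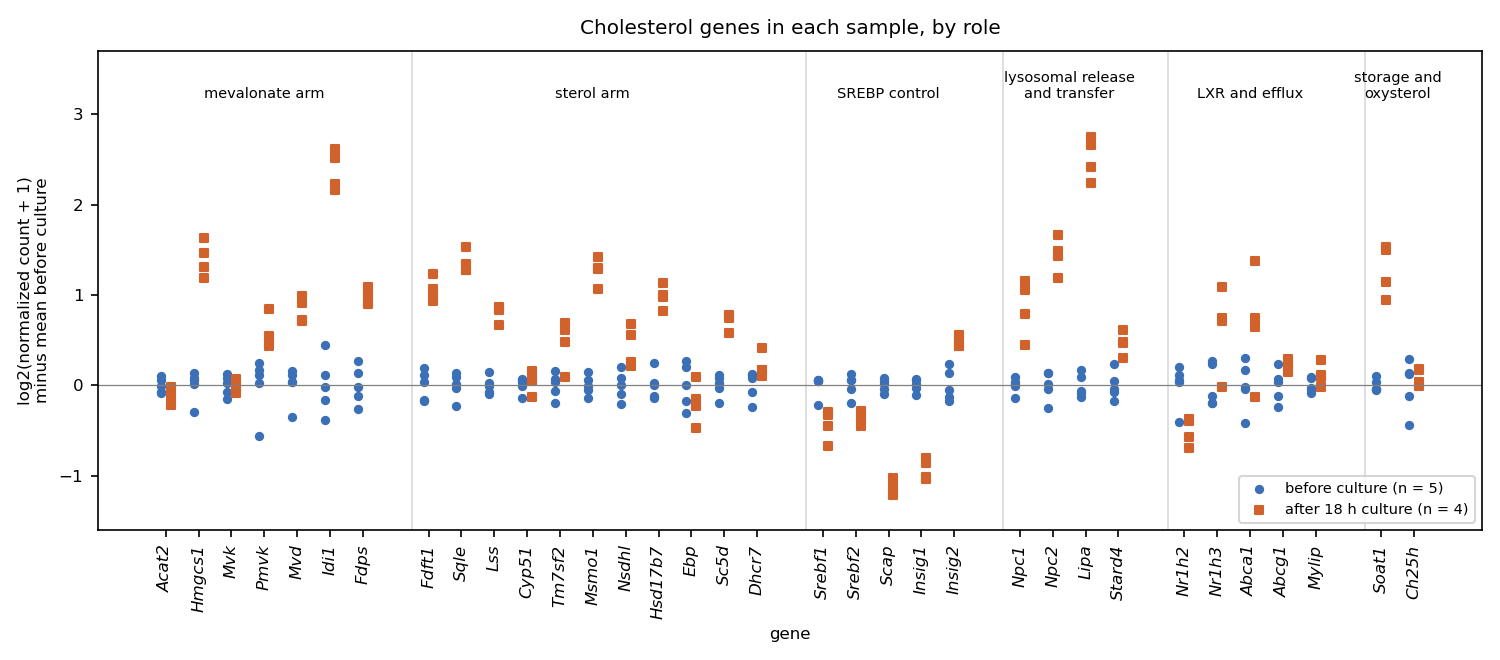
Each point is 1 sample, the vertical axis is log2(normalized count + 1) minus the mean of the samples before culture, and genes on the horizontal axis are grouped by role. All 4 samples after culture (squares) lie above all 5 before culture (circles) for 12 of the 18 synthesis enzymes and for Npc1, Npc2, Lipa and Stard4, and below for Srebf1, Srebf2, Scap and Insig1.

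The promoters are shown first, because the synthesis enzymes, of which 13 of 18 rose, are known as targets of SREBP2 and the factors that act with it. Windows from 250 bases before to 50 bases after the start site were taken from RefSeq (GRCm38.p6) for 28 of the 34 genes, 37 windows in all, and a gene was counted once if any of its windows held a match. No window was used for Fdps, Fdft1, Sqle, Npc1, Stard4 and Abcg1, so the counts below leave these genes out. Both strands were searched for the sterol regulatory element TCACNCCAC, for its shorter core CACNCCAC, which overlaps it, for the CCAAT box bound by NF-Y, and for the LXR element, here 2 copies of AGGNCA in the same direction with 4 bases between. The CCAAT box was found for 22 of the 28 genes (78.6%), beside 41.9% of the 11916 tested genes with a window. Among genes with a window, it was found for 9 of 9 of the sterol arm and 5 of 6 of the mevalonate arm, but for 1 of 4 of the LXR and efflux arm. It was not limited to the enzymes, since 4 of 5 control genes held it, namely Srebf1, Srebf2 and Insig1, which fell, and Insig2, which rose. So did 2 of 2 genes with a window that release or move cholesterol, and 1 of 2 storage and oxysterol genes. Mvk, Cyp51, Ebp and Dhcr7, whose counts did not pass the test, also hold a CCAAT box. TCACNCCAC was found for 1 gene, Hmgcs1 (1.38% of tested genes), and CACNCCAC for 3, Hmgcs1, Acat2 and Insig1 (7.74% of tested genes). The LXR element as written here was found for none of the 28 genes and for 0.235% of tested genes. Only exactly these letters outside N were counted, so an element that differs in any of them is missed. Finding no match therefore does not mean that a gene lacks such a site. These matches are letters in a window and not measured sites. The 160 bases before the start site of 6 genes are printed below 5′ to 3′, with matches in capitals (CCAAT boxes read ATTGG on the other strand). The first 4 are enzymes that rose, by 1.97-fold (Hsd17b7) to 5.16-fold (Idi1). Insig1 is a control gene that fell, and Abca1 is an efflux gene with no match to these exact letters.
Hmgcs1 (chr13:119690191-119690350, plus strand): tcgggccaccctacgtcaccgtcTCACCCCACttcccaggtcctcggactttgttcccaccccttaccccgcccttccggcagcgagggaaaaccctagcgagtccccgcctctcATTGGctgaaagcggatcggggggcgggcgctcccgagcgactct
Idi1 (chr13:8885446-8885605, plus strand): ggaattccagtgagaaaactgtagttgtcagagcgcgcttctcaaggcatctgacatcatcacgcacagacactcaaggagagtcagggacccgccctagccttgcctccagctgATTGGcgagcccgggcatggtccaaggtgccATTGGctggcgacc
Msmo1 (chr8:64733579-64733738, minus strand): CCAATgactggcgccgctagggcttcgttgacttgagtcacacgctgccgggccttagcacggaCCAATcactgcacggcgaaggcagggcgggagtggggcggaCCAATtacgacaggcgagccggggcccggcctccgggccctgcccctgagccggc
Hsd17b7 (chr1:169969206-169969365, minus strand): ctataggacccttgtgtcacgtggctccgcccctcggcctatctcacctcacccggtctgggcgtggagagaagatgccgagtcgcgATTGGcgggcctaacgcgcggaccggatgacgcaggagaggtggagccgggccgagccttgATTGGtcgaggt
Insig1 (chr5:28071252-28071411, plus strand): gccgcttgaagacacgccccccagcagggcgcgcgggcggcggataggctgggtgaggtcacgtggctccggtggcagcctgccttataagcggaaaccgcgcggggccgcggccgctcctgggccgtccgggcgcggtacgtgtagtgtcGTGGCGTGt
Abca1 (chr4:53159896-53160055, minus strand): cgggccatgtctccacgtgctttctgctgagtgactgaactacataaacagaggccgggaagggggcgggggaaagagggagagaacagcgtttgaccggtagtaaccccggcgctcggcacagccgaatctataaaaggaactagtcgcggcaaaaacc
In Hmgcs1 the sterol element begins 137 bases before the start site and a CCAAT box 45 bases before it. Msmo1 holds 3 CCAAT boxes in this stretch, and Idi1 and Hsd17b7 hold 2 each. In Insig1 the only match in the printed stretch is the core, on the other strand, 9 bases before the start site. The CCAAT box counted for Insig1 lies further upstream, outside the printed bases.

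In the mevalonate arm, 5 of 7 enzymes rose and 0 fell, with a median log2 fold change of 0.84. Idi1, the isomerase that makes the isoprene unit reactive, had the largest rise of all 18 enzymes. Its normalized counts were 371, 449, 411, 568 and 317 before and 1856, 1945, 2559 and 2373 after culture. The lowest sample after culture was over 3 times the highest before, and the mean was 5.16-fold higher (limma log2 fold change 2.38, SE 0.151, adjusted p = 1.15e-08). Of the 50-base windows of the longest Idi1 transcript, 30.5% are found elsewhere too, chiefly in Gm13502, so its level is uncertain. No named row carries the symbol Gm13502, so counts of that gene cannot be given beside it.

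Hmgcs1, the synthase that makes HMG-CoA and whose promoter opens the list above, stood at 2446, 2648, 2555, 2524 and 1969 before and 5498, 6004, 6669 and 7513 after culture. The groups did not overlap, and the mean was 2.64-fold higher (limma log2 fold change 1.40, SE 0.105, adjusted p = 6.22e-08). Its antisense neighbour Gm48342 shares 13.6% of its windows and has no named row. Fdps, which makes farnesyl pyrophosphate at the branch point of the pathway, was at 541, 659.6, 503, 603 and 455 before and 1025, 1136, 1088 and 1166 after culture. It rose 2.00-fold without overlap (limma log2 fold change 1.01, SE 0.106, adjusted p = 1.74e-06). However, 86.4% of its windows are shared with the overlapping gene model Gm43738, which has no named row either. Mvd, the mevalonate diphosphate decarboxylase, was at 1003, 1098, 1059, 772 and 1009.6 before and 1618, 1948, 1613 and 1849 after culture, again without overlap (limma log2 fold change 0.84, SE 0.106, adjusted p = 1.03e-05). Pmvk, the phosphomevalonate kinase, went from 254 ± 49.7 to 374 ± 51.3 (log2 fold change 0.58).

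The other 2 enzymes of this arm did not pass the test. Mvk, the mevalonate kinase, was at 338 ± 26.3 before and 333 ± 16.4 after culture (log2 fold change −0.022, SE 0.0948), and of 22 alternatives was called higher (0.43) only once GC content and length were corrected for. Acat2, a cytosolic thiolase that joins acetyl-CoA units, was at 305 ± 16.8 before and 284 ± 18.6 after culture (log2 fold change −0.11, SE 0.0953). For Acat2, 45.9% of windows occur in its neighbour Acat3, which was at 38.1 ± 13.5 before and 37.4 ± 3.97 after culture.

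In the sterol arm, 8 of 11 enzymes rose and 0 fell, with a median of 0.72. Sqle, the squalene epoxidase and a slow step of the pathway, led this arm. Its normalized counts were 1403, 1444, 1285, 1326 and 1122 before and 3189, 3319, 3188 and 3803 after culture, 2.56-fold higher on average and without overlap (limma log2 fold change 1.36, SE 0.0873, adjusted p = 1.30e-08). Msmo1, which removes methyl groups from the ring, was at 891, 1021, 959, 917 and 836 before and 1935, 2272, 2248 and 2475 after culture. Every sample after culture was above every sample before (limma log2 fold change 1.27, SE 0.0865, adjusted p = 2.34e-08).

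Fdft1, the squalene synthase, was at 783, 830.3, 743, 648 and 643 before and 1382, 1516, 1441 and 1709.8 after culture (limma log2 fold change 1.05, SE 0.0973, adjusted p = 4.96e-07). This rise is uncertain, because 30.7% of its windows lie in Ctsb, a gene on the opposite strand whose exons overlap it. Ctsb encodes cathepsin B and was far more abundant, at 25766 ± 5322 before and 72383 ± 20805 after culture, and strandedness is not given in the sources used here. Hsd17b7, a ketone reductase of the sterol demethylation steps, was at 515, 506, 466, 599 and 458 before and 895, 997, 1012 and 1112 after culture (limma log2 fold change 0.98, SE 0.0977, adjusted p = 1.04e-06). Its groups did not overlap.

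Of the other rising enzymes, Lss, which closes the sterol ring, had a log2 fold change of 0.80, and Sc5d, a desaturase of the last steps, of 0.72. Tm7sf2, a sterol reductase with the lowest counts of the 34 genes, rose by 0.47 with overlapping groups (119 ± 10.9 before and 166 ± 28.7 after culture). Nsdhl, a dehydrogenase of the demethylation steps, rose by 0.43, and was no longer called once GC content and length were corrected for (0.17, limma adjusted p = 0.184). The other 3 enzymes of this arm did not pass the test. Cyp51, the lanosterol demethylase, was at 2714 ± 156 before and 2785 ± 222 after culture (log2 fold change 0.036, SE 0.0753). Ebp, an isomerase, had a log2 fold change of −0.19 (SE 0.135). Dhcr7, the last reductase, had 0.22 (SE 0.0974, limma adjusted p = 0.0622), and was called higher in 5 of 22 alternatives. Among them were the correction for GC content and length (0.39, limma adjusted p = 7.59e-04), the replicate block by library number (0.25, 0.0143) and the fit without replicate 3 after culture (0.0460).

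**Figure D2:**
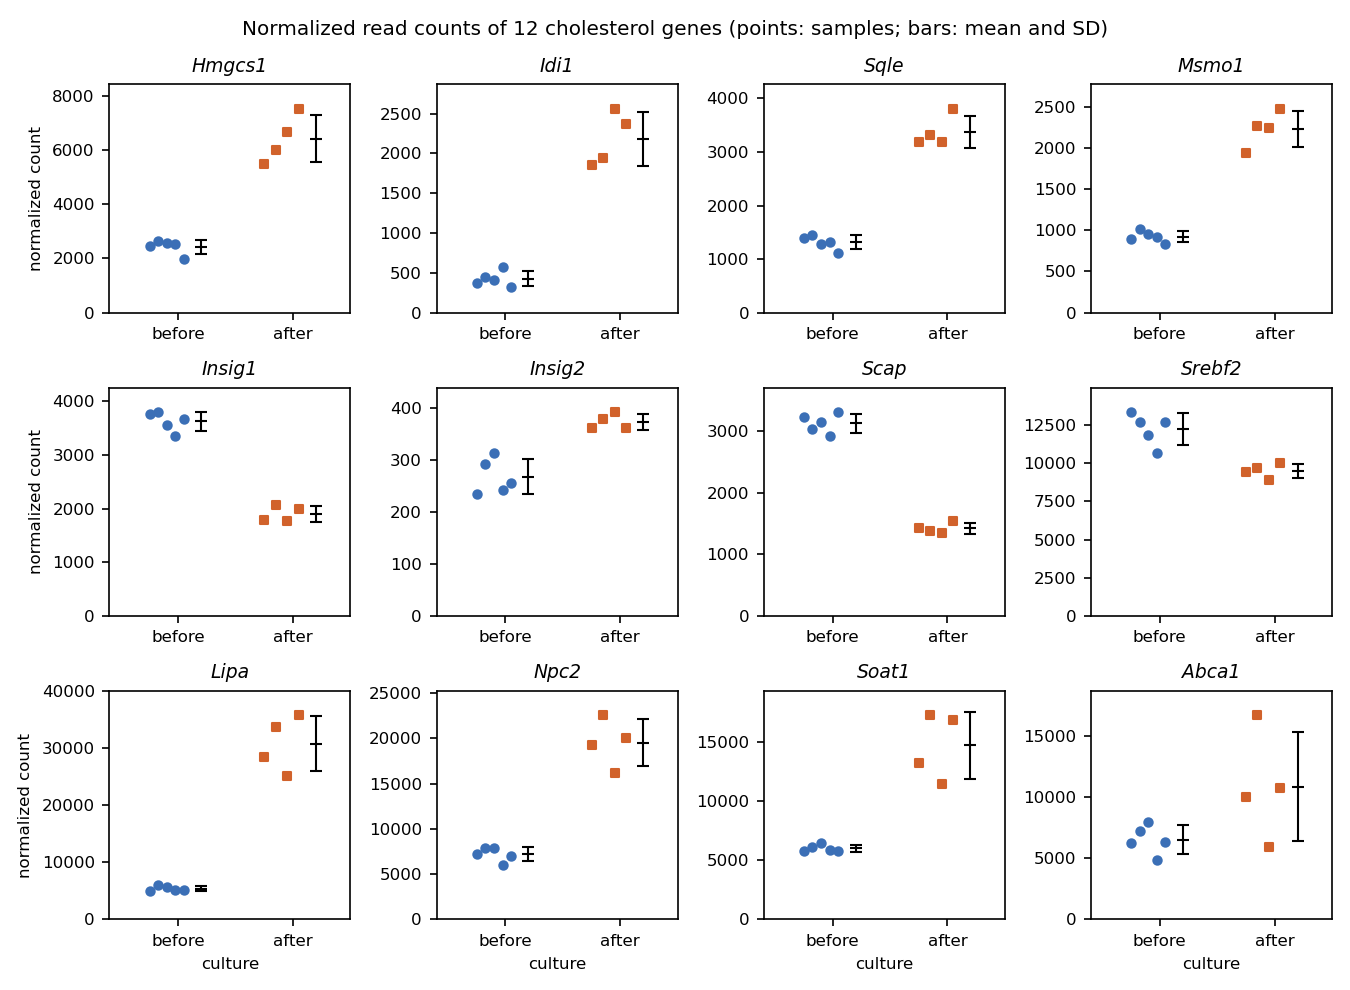
Each panel shows the normalized read count of 1 gene on a linear axis from 0, with 1 point per sample before (circles, n = 5) and after culture (squares, n = 4), and bars for the mean and SD. Hmgcs1, Idi1, Sqle, Msmo1, Insig2, Lipa, Npc2 and Soat1 separate upward, and Insig1, Scap and Srebf2 downward, while Abca1, from 5883 to 16706 after culture, overlaps the earlier group.

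Of the 5 genes that control the sterol response, 4 fell, against the direction of the enzymes, and 1 rose, with a median of −0.43. Scap, the sterol-sensing escort of the SREBPs (chr9:110333288-110384950 in GRCm38), had normalized counts of 3229.7, 3037, 3158, 2920.3 and 3311 before and 1428, 1375, 1348 and 1535 after culture. The highest sample after culture lay far below the lowest before, and the mean was 2.20-fold lower (limma log2 fold change −1.14, SE 0.0689, adjusted p = 7.24e-09). For Scap, 13.1% of windows lie in the antisense gene 5830462I19Rik, which was at 81.4 ± 9.13 before and 57.9 ± 14.8 after culture. Insig1, the retention protein that is itself a known SREBP target, was at 3769.6, 3800.3, 3569, 3361 and 3669 before and 1798, 2076, 1769.7 and 1993 after culture. It was 1.90-fold lower without overlap (limma log2 fold change −0.93, SE 0.0726, adjusted p = 9.05e-08).

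Insig2, its paralogue, moved in the opposite direction from Insig1. Its normalized counts were 235, 292, 314, 243 and 256 before and 361, 378, 392 and 362 after culture, and the groups did not overlap (limma log2 fold change 0.48, SE 0.108, adjusted p = 0.00133). Srebf2 was at 13358, 12721, 11844, 10696 and 12695 before and 9428, 9674, 8915 and 10007 after culture, lower in every sample after culture (limma log2 fold change −0.36, SE 0.0793, adjusted p = 0.00109). Srebf1, whose products act more on fatty acid genes, was at 3075, 3065, 3036, 2531 and 3041 before and 2344, 2402, 1852 and 2150.0 after culture, also without overlap (limma log2 fold change −0.43, SE 0.0908, adjusted p = 8.02e-04). The falls of Srebf1 and Srebf2 depended on whether GC content and length were corrected for. With GC content and length corrected for, they were 0.065 (limma adjusted p = 0.349) and 0.14 (0.0479), that is higher for Srebf2. The falls of Scap (−0.61) and Insig1 (−1.04) and the rise of Insig2 (0.26, limma adjusted p = 0.0470) kept their direction and call there.

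The genes that release cholesterol from lysosomes and move it onward all rose, 4 of 4, with a median of 1.15. Lipa, the lysosomal acid lipase (chr19:34492318-34527474), had the largest change of the 34 genes. Its normalized counts were 4876, 5982, 5676, 5030.3 and 5107 before and 28483, 33758, 25195 and 35799 after culture. The lowest sample after culture was over 4 times the highest before, the mean was 5.78-fold higher (limma log2 fold change 2.52, SE 0.107, adjusted p = 2.33e-10), and 97.9% of tested genes had a smaller log2 fold change. Npc2, which hands freed cholesterol to NPC1 inside the lysosome, was at 7221, 7841, 7858, 5989 and 6956 before and 19305, 22557, 16232 and 19999 after culture (limma log2 fold change 1.44, SE 0.106, adjusted p = 4.84e-08). Npc1, the membrane exporter, was at 5419.7, 5709.7, 5480.5, 4850.4 and 5347 before and 9267, 11924, 7303 and 11145 after culture (limma log2 fold change 0.86, SE 0.121, adjusted p = 2.77e-05). Both were higher in every sample after culture. Stard4, a soluble carrier of sterol between membranes and a known SREBP target, was at 928, 1012, 954, 1152 and 865 before and 1205, 1366, 1355 and 1495 after culture (limma log2 fold change 0.47, SE 0.0938, adjusted p = 5.93e-04), without overlap.

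Storage moved in the same direction as release. Soat1, which esterifies cholesterol for lipid droplets (chr1:156424525-156474331), was at 5739.6, 6103, 6418, 5800.4 and 5792 before and 13229, 17211, 11439.9 and 16855 after culture. It was 2.46-fold higher without overlap (limma log2 fold change 1.28, SE 0.112, adjusted p = 2.83e-07). Ch25h, the hydroxylase that makes 25-hydroxycholesterol, was at 373, 375, 419.6, 316 and 252 before and 385, 341, 389 and 349.7 after culture. The groups overlapped and it did not pass the test (limma log2 fold change 0.10, SE 0.136, adjusted p = 0.549).

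The LXR and efflux arm showed no separation of the groups, taken without pairing, for any of its 5 genes, and 2 were called higher and 1 lower, with a median of 0.21. Matched by library number, Abca1, Abcg1, Nr1h3 and Mylip were higher and Nr1h2 was lower after culture in each match. Whether library numbers mark pairs is not known. Abca1, the exporter that loads cholesterol onto apolipoprotein A-I, was at 6239, 7214, 7935, 4817 and 6338 before and 10033, 16706, 5883 and 10791 after culture. Replicate 3 after culture lay below 4 of the 5 samples before culture, while replicate 2 was the highest of all (limma log2 fold change 0.66, SE 0.229, adjusted p = 0.0203). The call was lost without replicate 2 after culture (log2 fold change 0.42, limma adjusted p = 0.0638) and without replicate 4 after culture (0.63, 0.0516), in a range of adjusted p from 3.62e-04 to 0.0638. Abcg1, the exporter to mature lipoproteins, was at 9268, 10619.9, 9478, 8323 and 7618 before and 10614, 10983, 9937 and 10265 after culture and did not pass the test (limma log2 fold change 0.21, SE 0.0926, adjusted p = 0.0543). It was called higher in 6 of 22 alternatives. Among them were the correction for GC content and length (0.49, limma adjusted p = 1.11e-04) and the replicate block by library number (0.27, 0.00295). The fits without replicate 2 before culture (0.0164) and without replicate 3 after culture (0.0479) were others.

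Nr1h3, which encodes the inducible receptor LXR alpha, was at 215, 276, 280.5, 203 and 204 before and 382, 499, 230.2 and 393 after culture (limma log2 fold change 0.63, SE 0.193, adjusted p = 0.0103). Of the 4 samples after culture, 3 were above all samples before, and replicate 3 was within their range. Nr1h2, the more widely expressed receptor LXR beta, was at 3311, 3136, 3188, 2311 and 3521 before and 2333, 2358, 1899.8 and 2064 after culture (limma log2 fold change −0.51, SE 0.115, adjusted p = 0.00146), lower but with overlap through replicate 4 before culture. With GC content and length corrected for, its log2 fold change was 0.0022 and not called. Mylip, the LXR target that marks lipoprotein receptors for degradation, was at 1909 ± 106 before and 2073 ± 180.2 after culture (log2 fold change 0.12, SE 0.0764) and did not pass the test.

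The coefficient of variation over the 34 genes had a median of 10.6% before (4.83% to 22.4%) and 9.49% after culture (3.96% to 41.1%). Abca1 had the widest spread after culture. After culture, replicate 3 was lowest, then replicate 1, replicate 4 and replicate 2, for each of Npc1, Npc2, Soat1, Abca1 and Nr1h3. Lipa was also lowest in replicate 3, but highest in replicate 4. The summed normalized count of 10 markers of monocytes and interstitial macrophages, cells known to express these genes too, was 205369, 270834, 147297 and 232103 in replicates 1 to 4 after culture, which is the same order. Before culture the sum ran from 113786 to 168326. Of the 10 markers, 1 (Lyz2) rose, 6 fell and none was at 0 in a whole group, and most of the sum was Lyz2, at 95286, 120716, 98297, 88855 and 74603 before and 186476, 241708, 133695 and 212269 after culture. The part of these cells in the lysosomal and efflux genes was not tested. Without replicate 2 after culture Lipa had a log2 fold change of 2.47, Npc1 of 0.77 and Soat1 of 1.20, and all 3 were still called.

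Ratios within pairs of genes of related role were compared directly, since each ratio removes any scaling shared by a sample. Over 6 pairs, the exact two-sided permutation test over all splits into 5 and 4 samples can give no p under 0.0159, and p was adjusted over the 6. The log2 ratio of Insig1 to Insig2 was 3.76 ± 0.182 before and 2.35 ± 0.136 after culture, a difference of −1.42 without overlap (exact permutation p = 0.0159, adjusted p = 0.0317). The ratio of Nr1h3 to Nr1h2 was −3.71 ± 0.290 before and −2.57 ± 0.348 after culture, a difference of 1.14 with the same exact p. The ratio of Npc1 to Npc2 was −0.41 ± 0.0811 before and −0.99 ± 0.138 after culture, a difference of −0.58, also with the same exact p, so Npc2 rose more than Npc1. The other 3 ratios overlapped between groups. Srebf2 to Srebf1 differed by 0.070 (exact adjusted p = 0.381), Abca1 to Abcg1 by 0.45 (0.262) and Fdft1 to Fdps, the enzymes on either side of farnesyl pyrophosphate, by 0.045 (0.778). The last ratio carries the limit of shared sequence given above for Fdft1 (with Ctsb) and Fdps (with Gm43738).

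**Figure D3:**
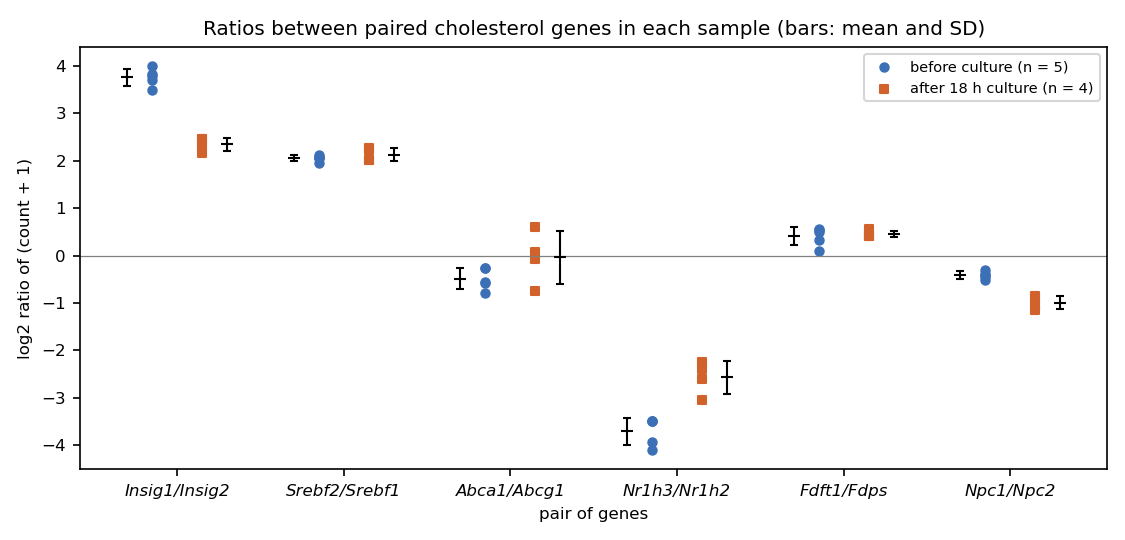
The vertical axis is the log2 ratio of (normalized count + 1) between the 2 genes named on the horizontal axis, with 1 point per sample and bars for mean and SD. Insig1/Insig2 and Npc1/Npc2 are lower and Nr1h3/Nr1h2 is higher in all 4 samples after culture, while the other 3 ratios overlap.

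Levels between genes can be set side by side only per length, here as normalized counts per kilobase of the longest coding transcript. Before culture Srebf2 (2415 ± 202), Npc2 (2174 ± 233) and Lipa (1797 ± 159) were the 3 highest of the 34 genes. The next were Abcg1 at 1554 ± 197 and Nr1h2 at 1547 ± 231, and each of these neighbours differed from the next by less than the sum of their SDs. After culture Lipa was first at 10377 ± 1633, then Npc2 at 5918 ± 789, while Npc1 (1897 ± 395), Srebf2 (1872 ± 90.6), Hmgcs1 (1854 ± 252), Abcg1 (1792 ± 77.3) and Soat1 (1754 ± 336) were level within their spread. Of the synthesis enzymes, Hmgcs1 (701 ± 77.0) and Cyp51 (690.3 ± 39.6) were level within their spread before culture, and Hmgcs1 was the highest after it. Idi1 moved from place 28 to place 14, and Scap from place 8 to place 22.

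Neighbouring pathways were counted from lists drawn up by function. Of 14 fatty acid synthesis genes, which SREBP1 also drives, 3 rose and 7 fell (34.2% and 34.6% of all genes), with a median of −0.30. Fasn, the fatty acid synthase, was 2.11-fold lower (9711 ± 655 before and 4607 ± 210.4 after culture, log2 fold change −1.07), and Elovl5, an elongase, fell too (−1.08). Acss2, which makes acetyl-CoA from acetate, was 2.84-fold higher (329 ± 51.5 before and 936 ± 112 after culture, 1.51), and Me1, a source of NADPH, rose from 101 ± 28.1 to 361 ± 51.2 (1.87). Acaca, the acetyl-CoA carboxylase, rose by 0.37. Most cholesterol enzymes and most called fatty acid genes therefore lay on opposite sides of 0, and the difference between the lists was not tested.

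Of 13 genes that process SREBP or degrade sterol-regulated proteins at the endoplasmic reticulum, 5 rose and 3 fell (median 0.12). The share that rose, 38.5%, is near the 34.2% over all genes, and the share that fell, 23.1%, is below 34.6%, so the values that follow describe single genes. Erlin2 (0.91) and Faf2 (0.64), which take part in that degradation, rose, as did Mbtps2 (0.64), a protease that cleaves SREBP. The 3 that fell were the ubiquitin ligases Syvn1 (−0.78) and Rnf145 (−0.28) and the deubiquitinase Usp20 (−0.49). Of 8 further LXR targets, 6 were tested, and 3 rose and 1 fell (34.2% and 34.6% of all genes). Smpdl3a rose by 0.57, Mertk, a receptor for dead cells, by 0.55, and Arl4c by 0.38, while Pltp, a lipid transfer protein, was 3.71-fold lower (3257 ± 447 before and 878 ± 199 after culture, −1.91). Abcg5 and Abcg8 had mean values under 10 and were not tested.

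Of 5 genes that make or sense oxysterols, 4 fell and 0 rose (34.6% and 34.2% of all genes), with a median of −0.95. Cyp7b1, which hydroxylates 25-hydroxycholesterol, was 5.52-fold lower (128 ± 35.2 before and 23.1 ± 10.4 after culture, −2.47). Cyp27a1, which makes 27-hydroxycholesterol, was 2.74-fold lower (1117 ± 89.5 before and 408 ± 39.7 after culture, −1.45). Gpr183, the receptor for dihydroxylated oxysterols, went from 2631 ± 208 to 1374 ± 68.8 (−0.93), and Cyp39a1 had −0.95 with overlapping groups.

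**Figure D4:**
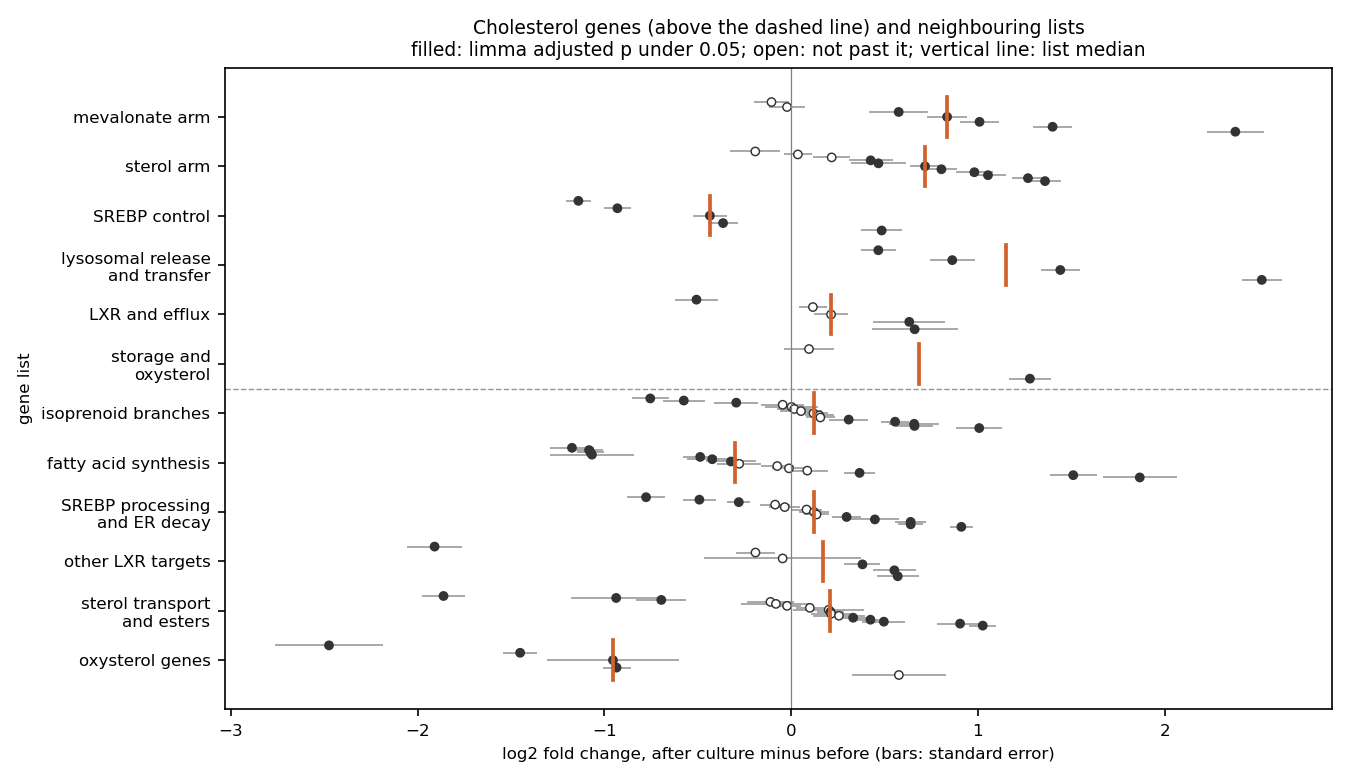
Each point is the log2 fold change of 1 gene, after minus before culture, with its standard error as a bar, by gene list on the vertical axis, filled where the adjusted p was under 0.05, with vertical lines at list medians. The lysosomal list has the highest median (1.15) and the oxysterol list the lowest (−0.95).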

How the data were processed

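The deposited matrix holds reads per gene that the authors normalized by sample (a signal, not raw counts). The submitters' processing notes name DESeq2 and GRCm38, with no role or version given there. The aligner, counter, annotation and strandedness are not given in the sources used here. Within each sample 100% of values were whole multiples (tolerance 0.0001 read) of the value of 1 read, so whole reads were recovered. Depth was 14673818 to 28793443 named reads before and 26003300 to 35286110 after culture. Rows without a gene name (3782 of 49317, 3.87% to 10.9% of reads) were left out.

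Values were tested as log2(value + 1) with limma 3.58.1 (R 4.3.3, trended variance, Benjamini-Hochberg adjustment over 18202 rows with a mean of at least 10), tested on simulated data. The deposited values being normalized, limma was the main test. As an alternative, edgeR 4.0.16 on the recovered reads called 6184 genes higher and 6378 lower, beside 6225 and 6299 with limma, and DESeq2 1.42.0 called 6293 and 6370. Sample pairs within a group differed by more than counting gives (chi-square divided by its degrees of freedom, 6.81 to 68.7). Shared sequence, GC content and length come from GENCODE M21, in windows of 50 bases, and GC content and length were matched for 96.5% of tested rows.

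The genes and lists were chosen with earlier results of these data known. Values in every sample are given for up to 4 genes of each role with the smallest adjusted p and for those called against the median of their role. Up to 3 genes with the smallest adjusted p, and those called against the median, represent each pathway list. Mbtps2, Arl4c, Cyp39a1, Itgae and Lyz2 were named with their values known. Alternatives covered the pseudocount, filter, scaling, tool, replicate block, GC content and length, and leaving out each replicate.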

Additional observations from a re-analysis of the deposited data

Results flagged for a closer look

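One value among the 68 sets of replicates (34 genes in each of 2 groups) stood apart from the rest of its set. Srebf1, which encodes SREBP1, was at 2531 normalized counts in replicate 4 before culture, while the other 4 samples before culture lay between 3036 and 3075. The gap to the nearest sample was 0.929 of the whole range, above Dixon's critical value for 5 samples. Chance alone marks about 1 in 20 sets. Without replicate 4 before culture the log2 fold change of Srebf1 was −0.49, beside −0.43 with all samples.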

How the results depend on the processing

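Of the 34 genes, 22 kept their direction and their side of the threshold under all 22 alternatives, and 27 of 748 gene values did not, of which 12 changed sign. The correction for GC content and length changed most. It turned Mvk (0.43), Srebf1 (0.065), Srebf2 (0.14) and Nr1h2 (0.0022) to the higher side and Cyp51 (−0.13) to the lower, left 2 genes called lower in all, moved the median of the mevalonate arm to 1.04, and gave 2 control genes higher and 2 lower with a median of 0.065. In the LXR and efflux arm it left 0 genes lower, with a median of 0.49. Quantile normalization moved the median of the 34 genes to 0.68, Acat2 to 0.058 and Mvk to 0.12, and upper quartile scaling moved Mvk to 0.0069. With 1 replicate left out, 3 genes that were not called changed sign: Mvk (−0.060 to 0.0096, higher without replicate 1 before culture), Ch25h (−0.014 to 0.17, lower without replicate 5 before culture) and Cyp51 (−0.0043 to 0.089, lower without replicate 4 after culture). The cause was not tested. Leaving out 1 replicate at a time gave 1 to 3 LXR and efflux genes called higher, the lowest without replicate 2 or without replicate 4 after culture. The ratios ranged from −1.48 to −1.36 for Insig1/Insig2, 1.03 to 1.30 for Nr1h3/Nr1h2 and −0.63 to −0.53 for Npc1/Npc2, with exact permutation adjusted p from 0.0536 to 0.0714, at the smallest exact p that 8 samples allow. Fdft1/Fdps, which was not called, ranged from −0.030 to 0.084 and turned without replicate 4 before culture.

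With the replicate block by title number, in which replicate 5 before culture has no partner and adds nothing, 20 of the 34 genes were called higher and 5 lower (5761 and 5885 of all genes), and Tm7sf2 was no longer called (0.42, limma adjusted p = 0.0607), while Ch25h, not called, was at −0.014. With the block by library number, in which replicate 2 before culture has none, the counts were 23 and 5 (6390 and 6446 of all genes). Same-numbered samples correlated in their deviations at 0.081, 0.080, −0.213 and −0.040 by title number and at 0.081, 0.247, 0.349 and 0.045 by library number. Each sample after culture correlated best with its own library number, a hint from the data and not the design. The sources used here name no pairs, so the main fit, the permutation tests and the statements of overlap are unpaired. If library numbers mark pairs, these tests and statements leave that pairing out. Depth limits none of the 34 genes to few reads, since the lowest value was 58 reads, but 4 and 5 samples a group limit how small a difference can be called.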

Other observations

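Farnesyl and geranylgeranyl units also leave the pathway for protein prenylation, dolichol and ubiquinone. Of 15 genes of these branches, 5 rose and 3 fell (33.3% and 20.0%), with a median log2 fold change of 0.12. Over all genes 34.2% rose and 34.6% fell, so the share that rose is near that of all genes, and the values below describe single genes. Nus1, a subunit of the enzyme that lengthens the dolichol chain, rose from 1556 ± 137 to 3171 ± 665 (1.01). Fnta (0.56), a subunit of prenyl transferases, rose too. Rabggta, a subunit of the transferase for Rab proteins, had a log2 fold change of −0.75, and Coq2, of ubiquinone synthesis, had −0.57. Rce1, the protease that trims prenylated proteins, had −0.29.

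Of 16 genes of sterol transport and cholesterol esters, 6 rose and 3 fell (37.5% and 18.8%, median 0.21). The share that rose is again near the 34.2% over all genes. Scarb1, the scavenger receptor for high-density lipoprotein, was 3.61-fold lower, at 5162, 5062, 5415, 4223 and 4312 before and 1316, 1598, 1058 and 1378 after culture (−1.86). Gramd1b, which carries sterol from the plasma membrane, rose from 2054 ± 110.0 to 4189 ± 317 (1.03), while its relative Gramd1a had −0.70. Vldlr, the receptor for very low density lipoprotein, went from 71.2 ± 21.3 to 35.8 ± 6.56 (−0.94). Nceh1, a neutral hydrolase of cholesterol esters, rose by 0.90, so both it and Soat1, which makes the esters, were higher after culture.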
